A study of Homo sapiens with 15 samples.

Results

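Libraries 3 and 4 of the HUNK knockdown lines KD1 and KD2 were compared with libraries 1 and 2 of the same lines, with the line as a block, over every gene of the panel. The members are the 8 knockdown libraries, 4 with the numbers 1 and 2 and 4 with the numbers 3 and 4, of 15 libraries in the series. They were chosen by the number in the sample titles. The labels attach no culture condition, passage, day or batch to these numbers, so the comparison is called here by library number.

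RNA of JIMT-1, an established human HER2-positive breast cancer cell line, was measured on a fixed panel of 758 genes. KD1 and KD2 are JIMT-1 cells with shRNA against HUNK, a serine/threonine kinase of the SNF1/AMPK-related family, and were grown under puromycin. CTL (n = 4) is the reference group of the series, for which the labels name neither a control shRNA nor puromycin, and 3 further libraries had the compound HSL119. All cells shared one medium with fetal bovine serum, glutamine and antibiotics, and no time in culture is given. The labels do not say whether KD1 or KD2 is a clone or a pool. HUNK is not on the panel, so its level in either library set was not measured.

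Several gene classes on the panel report on the growth state of a cell. Immediate-early genes such as FOS and JUN are transcribed within minutes of serum, growth factors or stress, and their short-lived RNAs soon fall again. Cyclins and replication factors are transcribed by E2F factors as cells leave G1 for S phase, whereas CDK inhibitors hold cells before that step. Replication-dependent histone genes are expressed in S phase.

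A gene was tested where its linear normalized count exceeded 20 in at least 4 of the 8 knockdown libraries, which held for 557 genes and left out 201. A gene passed where the limma adjusted p (Benjamini-Hochberg over the 557 genes) was under 0.05 with the same sign in both lines. Here "rose" and "fell" are kept for genes that also passed in the same direction on 5 scalings of the values, each with all libraries and with each pair of libraries averaged. Only 2 genes were above the floor in all of libraries 3 and 4 and in none of the others, and neither is among those that rose or fell. Differences are log2 values of libraries 3 and 4 minus libraries 1 and 2, averaged over both lines. Levels are log2 normalized counts as deposited, and where 4 values of a line are given, libraries 1 and 2 stand before libraries 3 and 4.

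The recovered counts totalled 1442964 to 1477037 in knockdown libraries 1 and 2, 1534932 to 1561639 in libraries 3 and 4 and 1241234 to 1457370 in CTL. Libraries 3 and 4 were thus the deeper set, and what depth adds to the results was not tested beyond the 5 scalings. The cells kept markers of the line in all 8 knockdown libraries, with ERBB2 at 12.52 to 12.89, CDH1 at 12.63 to 12.75 and KRT7 at 13.27 to 13.86. Libraries 1 and 2 of a line were close to counting error, where the chi-square of their counts divided by its degrees of freedom was 1.19 in KD1 and 1.34 in KD2. Libraries 3 and 4 of KD1 were as close, at 1.25, but those of KD2 stood apart at 20. Across the sets of a knockdown line the value was 112 to 145, against 4.71 to 4.83 across the sets of CTL. The close pairs may be technical repeats, which the labels do not settle. P-values of the main fit then measure the spread between such repeats, the gap within KD2 and the disagreement of the lines. With pairs averaged, only the disagreement of the lines is left. With all libraries in fits of a single line, of the line difference or with CTL, only the spread within pairs enters.

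Both knockdown lines differed between library sets in most of the 557 tested genes, and largely in the same direction. In all, 368 of 557 genes passed (66.1%), 225 higher in libraries 3 and 4 (40.4%) and 143 lower (25.7%). By the stricter rule 124 rose (22.3%) and 103 fell (18.5%), 227 genes together (40.8%), and in each of the 227 the 2 sets did not overlap in either line. Over all tested genes, the sets did not overlap in either line for 365 (65.5%). With pairs averaged 323 genes passed (58%), and 362 did in KD1 alone (65%) and 305 in KD2 alone (54.8%). The fit with pairs averaged, which the stricter rule also uses, had 1 residual degree of freedom and leans on variance shared across genes. Each fit of a single line sets 2 libraries against 2. The differences exceeded 2-fold in both lines for 34 genes (6.1%), 16 upward (2.87%) and 18 downward (3.23%). They did so for 45 genes in KD1 (8.08%), 65 in KD2 (11.7%) and 5 in CTL (0.898%).

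The split of higher and lower calls depended on the scaling. It was 225 and 143 on the deposited values and 187 and 192 by median of ratios, where the median of all tested genes moved from 0.06 to -0.04. On both scales the typical gene therefore lay near 0, and the falls reached further than the rises. Across genes the differences of KD1 and KD2 had a Pearson r of 0.893 and a Spearman rho of 0.888, and 474 genes (85.1%) had the same sign. Genes are not independent replicates, so these values describe the likeness only. The spread of the differences (SD across genes) was 0.628 in KD1, 0.653 in KD2 and 0.202 in CTL.

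**Figure D1:**
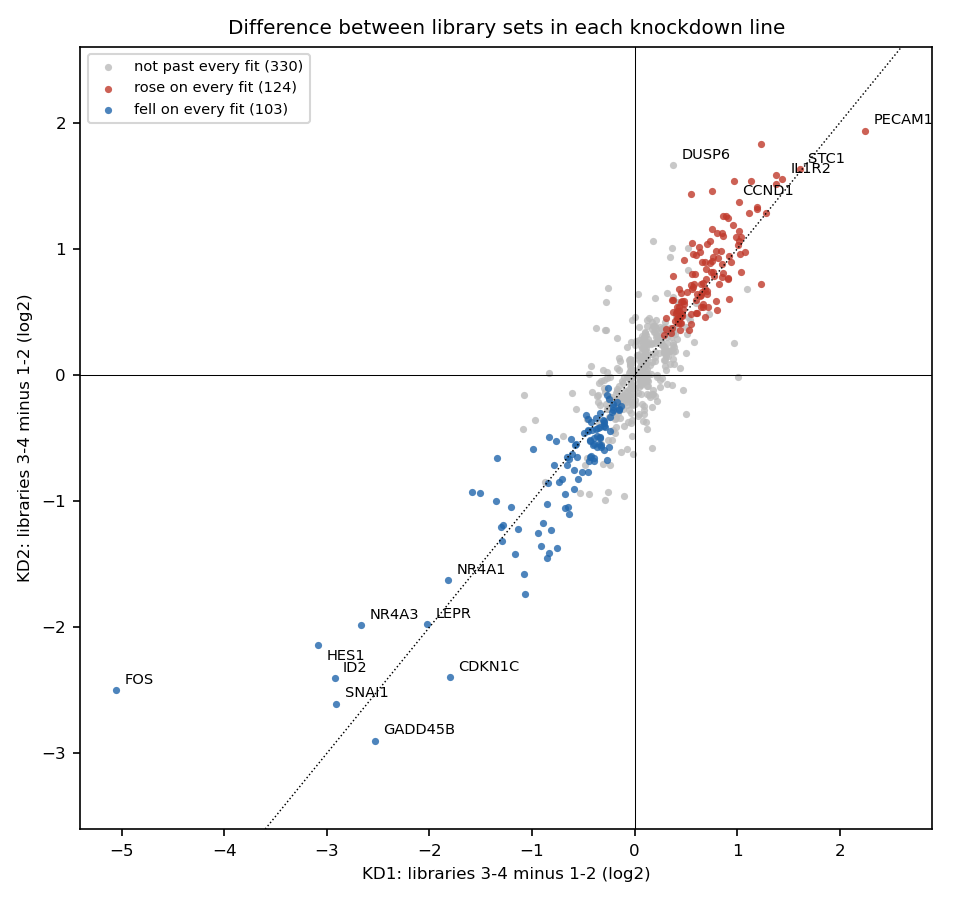
Difference between library sets for each of 557 tested genes, KD1 on the x axis and KD2 on the y axis, both as log2 of libraries 3 and 4 minus libraries 1 and 2. Red points mark the 124 genes that rose, blue points the 103 that fell and grey points the rest, and the dotted line marks equal differences, with FOS at -5.05 in KD1 and -2.50 in KD2 the farthest point.

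Immediate-early genes were lower in libraries 3 and 4 of both lines. Of 9 tested genes of that list 7 fell and 1 rose, and the median difference was -1.29, against 0.06 over all tested genes. FOS, which pairs with JUN in the transcription factor AP-1, stood at 10.43 and 10.34 against 5.38 and 5.29 in KD1, and 10.35 and 10.37 against 5.97 and 9.74 in KD2. It was thus lower in every library 3 and 4, but library 4 of KD2 lay far nearer to libraries 1 and 2 than the other 3 did. FOS fell by 13.7-fold (log2 difference -3.77, SE 0.773, adjusted p = 0.00199), with -3.28 when library 3 of KD2 was left out and -4.78 when library 4 was. By edgeR on the recovered counts its log2 difference was -2.93. In KD2 alone its difference of -2.50 did not pass.

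GADD45B, a stress-induced gene that acts on p38 and JNK signalling, stood at 12.19 and 12.17 against 9.61 and 9.68 in KD1, and 12.40 and 12.43 against 9.32 and 9.71 in KD2. The sets lay apart by more than 2 log2 units in each line, and GADD45B fell by 6.57-fold (log2 difference -2.72, SE 0.0966, adjusted p = 7.8e-08). The orphan nuclear receptor NR4A3 stood at 7.79 and 7.94 against 5.01 and 5.40 in KD1, and 7.34 and 7.38 against 5.0 and 5.76 in KD2, and fell by 5-fold (log2 difference -2.32, SE 0.205, adjusted p = 9.81e-06). Its relative NR4A1 stood at 7.89 and 7.92 against 6.10 and 6.08 in KD1, and 7.54 and 7.57 against 6.0 and 5.87 in KD2. NR4A1 fell by 3.3-fold (log2 difference -1.72, SE 0.0853, adjusted p = 2.9e-07).

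JUN stood at 15.20 and 15.16 against 13.62 and 13.58 in KD1, and 15.03 and 15.01 against 13.74 and 14.45 in KD2. Its libraries 3 and 4 were lower in both lines, with library 4 of KD2 again the nearest to the earlier numbers. JUN fell by 2.38-fold (log2 difference -1.25, SE 0.166, adjusted p = 0.000136). The antiproliferative gene BTG2 fell by 1.29 on the log2 scale (SE 0.0763) and GADD45A, a stress-induced growth arrest gene, by 1.24 (SE 0.101). FOSL1, the AP-1 subunit FRA-1, went the other way with 13.58 and 13.55 against 14.31 and 14.31 in KD1, and 13.27 and 13.27 against 14.22 and 14.43 in KD2, a rise of 0.90 (SE 0.0686). MYC did not pass, at a difference of 0.04 (SE 0.117). Without library 3 or library 4 of KD2, 7 members of the list were still called lower and 1 higher.

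**Figure D2:**
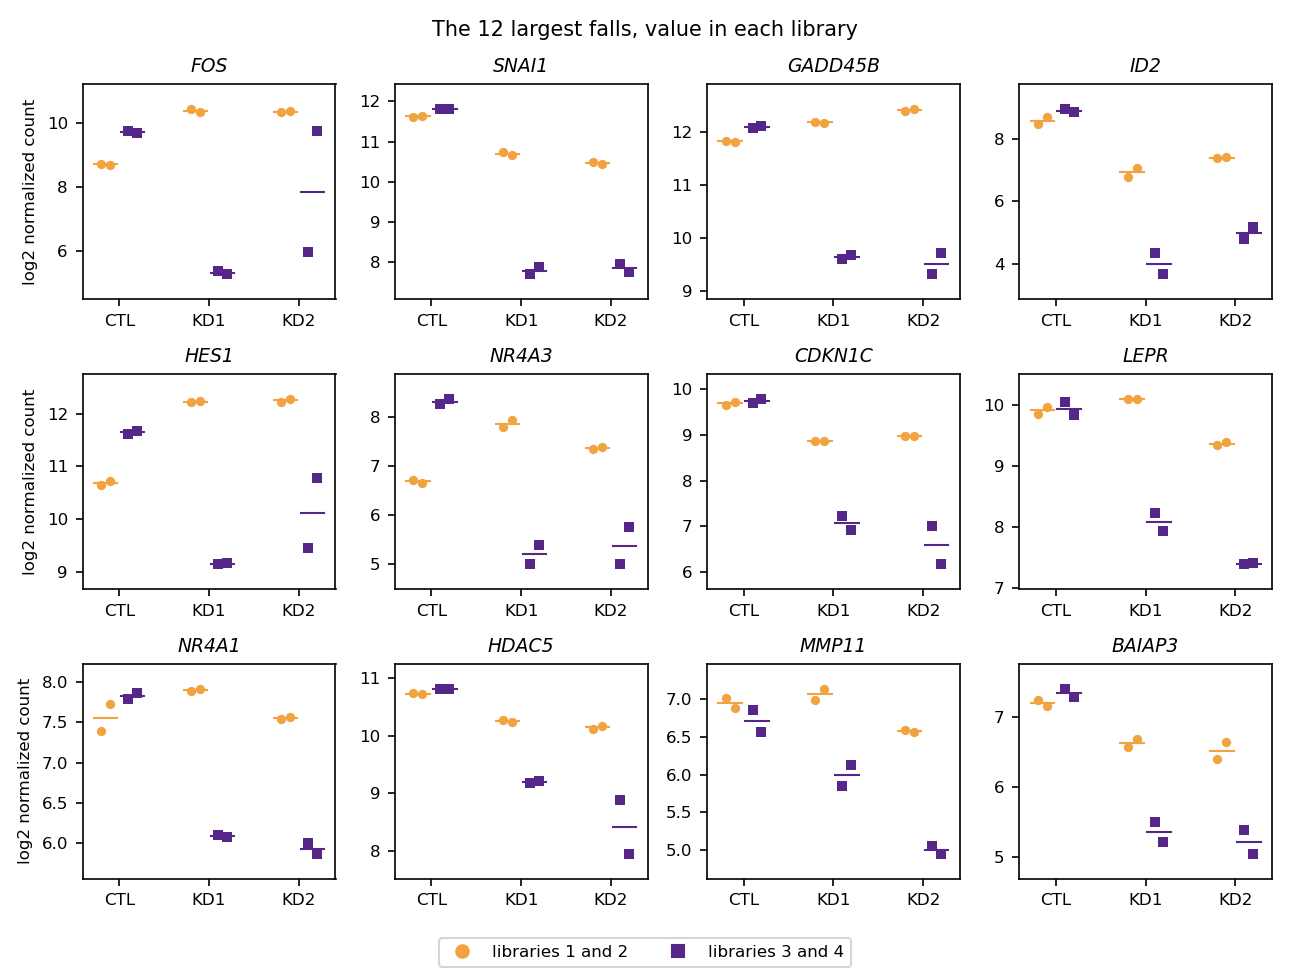
Levels (log2 normalized count, y axis) of the 12 genes with the largest falls in each library of CTL, KD1 and KD2. Circles are libraries 1 and 2, squares libraries 3 and 4 and short lines the mean of each pair. The knockdown squares lie below the circles in every panel. The CTL difference is 0.97 or more in FOS, HES1 and NR4A3 and 0.32 or less in the others. It is below 0 only in MMP11.

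The promoter of FOS is shown with the motifs searched in the genes that moved together. The sequence is RefSeq's (GRCh38.p14), from 250 bases before the transcription start to 15 after it, and capitals mark the CRE half-site TGACG and the TATA box TATAAA. It lies at chr14:75278578-75278842 on the plus strand.
FOS: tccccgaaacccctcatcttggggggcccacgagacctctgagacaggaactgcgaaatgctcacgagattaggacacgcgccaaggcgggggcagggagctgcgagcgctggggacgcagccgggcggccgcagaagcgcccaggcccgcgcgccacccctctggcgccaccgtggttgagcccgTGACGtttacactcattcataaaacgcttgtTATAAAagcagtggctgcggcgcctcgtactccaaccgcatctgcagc
The half-site began at -64 and the TATA box at -33 from the start. The motifs and genes were picked after the values were seen. Of the 7 immediate-early genes that fell, 6 had a promoter in the table, and TGACG was found on either strand in 4 of them (BTG2, FOS, JUN and NR4A3), against 25% of all 27305 promoters of 300 bases. Of 8 promoters of G1/S genes that rose, 3 held it as well (MCM2, MCM3 and PCNA). The full CRE TGACGTCA, which contains that half-site, the AP-1 motif TGANTCA and the CArG box were in none of the 6. Bases more than 250 before the start were not searched, so sites farther upstream would be missed.

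Other regulators with large falls belong to the Snail, ID and Notch groups. SNAI1, a repressor of E-cadherin, stood at 10.73 and 10.67 against 7.70 and 7.89 in KD1, and 10.50 and 10.43 against 7.96 and 7.76 in KD2. It fell by 6.75-fold (log2 difference -2.76, SE 0.0821, adjusted p = 3.03e-08), the closest to equal in both lines among the 5 largest falls, with -2.91 in KD1 and -2.61 in KD2. ID2, which blocks DNA binding by basic helix-loop-helix factors, stood at 6.79 and 7.06 against 4.35 and 3.66 in KD1, and 7.37 and 7.41 against 4.79 and 5.17 in KD2. ID2 fell by 6.34-fold (log2 difference -2.66, SE 0.192, adjusted p = 2.71e-06), to levels near the floor in KD1. ID4, of the same family, stood at 10.23 and 10.14 against 9.04 and 8.93 in KD1, and 10.59 and 10.57 against 9.22 and 9.85 in KD2, and fell by 1.12 (SE 0.119) on the log2 scale, whereas ID1 had a difference of 0.69 (SE 0.142) and did not pass on every fit. Of 10 tested genes of the ID and BMP list, 3 fell and 1 rose, with a median of 0.12, where 18.5% of all tested genes fell and 22.3% rose.

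HES1, the repressor that Notch signalling induces, stood at 12.22 and 12.25 against 9.14 and 9.16 in KD1, and 12.23 and 12.28 against 9.45 and 10.77 in KD2. All knockdown libraries 3 and 4 were lower, library 4 of KD2 the least, and HES1 fell by 6.12-fold (log2 difference -2.61, SE 0.277, adjusted p = 3.08e-05). The receptor genes NOTCH3 and NOTCH1 and the ligand gene JAG1 also fell, with differences of -1.06 (SE 0.209), -0.33 (SE 0.0788) and -0.66 (SE 0.0895). LFNG, a glycosyltransferase that modifies Notch receptors, rose instead, with 7.02 and 6.98 against 8.22 and 8.17 in KD1, and 6.75 and 6.92 against 8.24 and 8.10 in KD2. The rise was 2.4-fold (log2 difference 1.26, SE 0.0777, adjusted p = 1.1e-06). In the Notch list 4 of 14 tested genes fell and 1 rose, at a median of -0.10, beside the same shares of 18.5% and 22.3% over all tested genes.

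The remaining large falls came from several classes. CDKN1C, a CDK inhibitor, stood at 8.87 and 8.87 against 7.22 and 6.92 in KD1, and 8.98 and 8.98 against 7.0 and 6.17 in KD2, and fell by 4.28-fold (log2 difference -2.10, SE 0.189, adjusted p = 1.09e-05). The leptin receptor gene LEPR stood at 10.09 and 10.10 against 8.23 and 7.92 in KD1, and 9.34 and 9.39 against 7.39 and 7.40 in KD2, and fell by 3.99-fold (log2 difference -2.0, SE 0.0715, adjusted p = 7.8e-08), nearly alike in both lines. HDAC5, a class IIa histone deacetylase, fell by 1.40 (SE 0.199) on the log2 scale. MMP11, a matrix metalloproteinase, had a difference of -1.33 (SE 0.135), and BAIAP3, of the Munc13 family of vesicle release factors, one of -1.30 (SE 0.128).

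The largest rises were smaller than the largest falls and came from several classes, among them cell surface, secreted, cell cycle, histone and DNA repair genes. PECAM1, an adhesion molecule best known from endothelium and platelets, stood at 5.33 and 5.42 against 7.65 and 7.60 in KD1, and 5.75 and 5.64 against 7.97 and 7.29 in KD2. Every library 3 and 4 was higher, and PECAM1 rose by 4.26-fold (log2 difference 2.09, SE 0.152, adjusted p = 2.84e-06). Of 9 endothelial markers on the panel 3 were above the floor, and 2 of these, PECAM1 and CDH5, were called higher. CDH5, an endothelial cadherin near the floor at linear values of 16.94 to 26.64, had a log2 difference of 0.44 (SE 0.145) and did not pass on every fit. TIE1, also above the floor, had a log2 difference of 0.15 (SE 0.221) and did not pass. Below the floor, the mean linear value of ROBO4 went from 9.01 to 19.16 and that of TEK from 8.19 to 14.11. That of KDR went from 12.69 to 14.08, and that of CLEC14A was nearly unchanged, from 14.53 to 14.6. The summed linear level of the 9 was 133.9 to 163.5 in libraries 1 and 2 and 276.9 to 403.8 in libraries 3 and 4. Without PECAM1 the sum of the other 8 was 91 to 113.6 in libraries 1 and 2 and 119.2 to 152.4 in libraries 3 and 4. These sums, of values near or below the floor, did not overlap either. The part of other cells in the rise of PECAM1 was not tested, and in bulk RNA more cells of a type and more RNA per cell cannot be told apart. Of the markers of other cell types, 4 of 11 for T and NK cells, 2 of 8 for myeloid cells, 2 of 6 for fibroblasts, 0 of 1 for B cells and 0 of 4 for adipocytes were above the floor. Of these CD68, a lysosomal protein of macrophages, fell by 0.65 (SE 0.0807) and the others did not pass.

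STC1, the secreted glycoprotein stanniocalcin, stood at 7.17 and 7.06 against 8.79 and 8.67 in KD1, and 7.53 and 7.43 against 9.58 and 8.64 in KD2, and rose by 3.07-fold (log2 difference 1.62, SE 0.170, adjusted p = 2.9e-05). The Wnt receptor gene FZD8 stood at 4.26 and 4.46 against 5.71 and 5.75 in KD1, and 4.08 and 4.55 against 5.71 and 6.09 in KD2, and rose by 1.48 (SE 0.161), from levels near the floor. CHRNA5, a nicotinic receptor subunit, stood at 8.84 and 8.97 against 10.25 and 10.32 in KD1, and 8.77 and 8.83 against 10.29 and 10.32 in KD2. It rose by 2.72-fold (log2 difference 1.44, SE 0.0530, adjusted p = 7.8e-08) with nearly the same level in both lines. NGFR, a neurotrophin receptor, rose by 1.2 (SE 0.106) and SKA3, of the kinetochore, by 1.34 (SE 0.104). IL1R2, the decoy receptor of interleukin 1, rose by 1.5 (SE 0.164), but CTL libraries 3 and 4 were also higher, by 1.02. Its knockdown difference was not beyond that of CTL (limma adjusted p = 0.206).

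**Figure D3:**
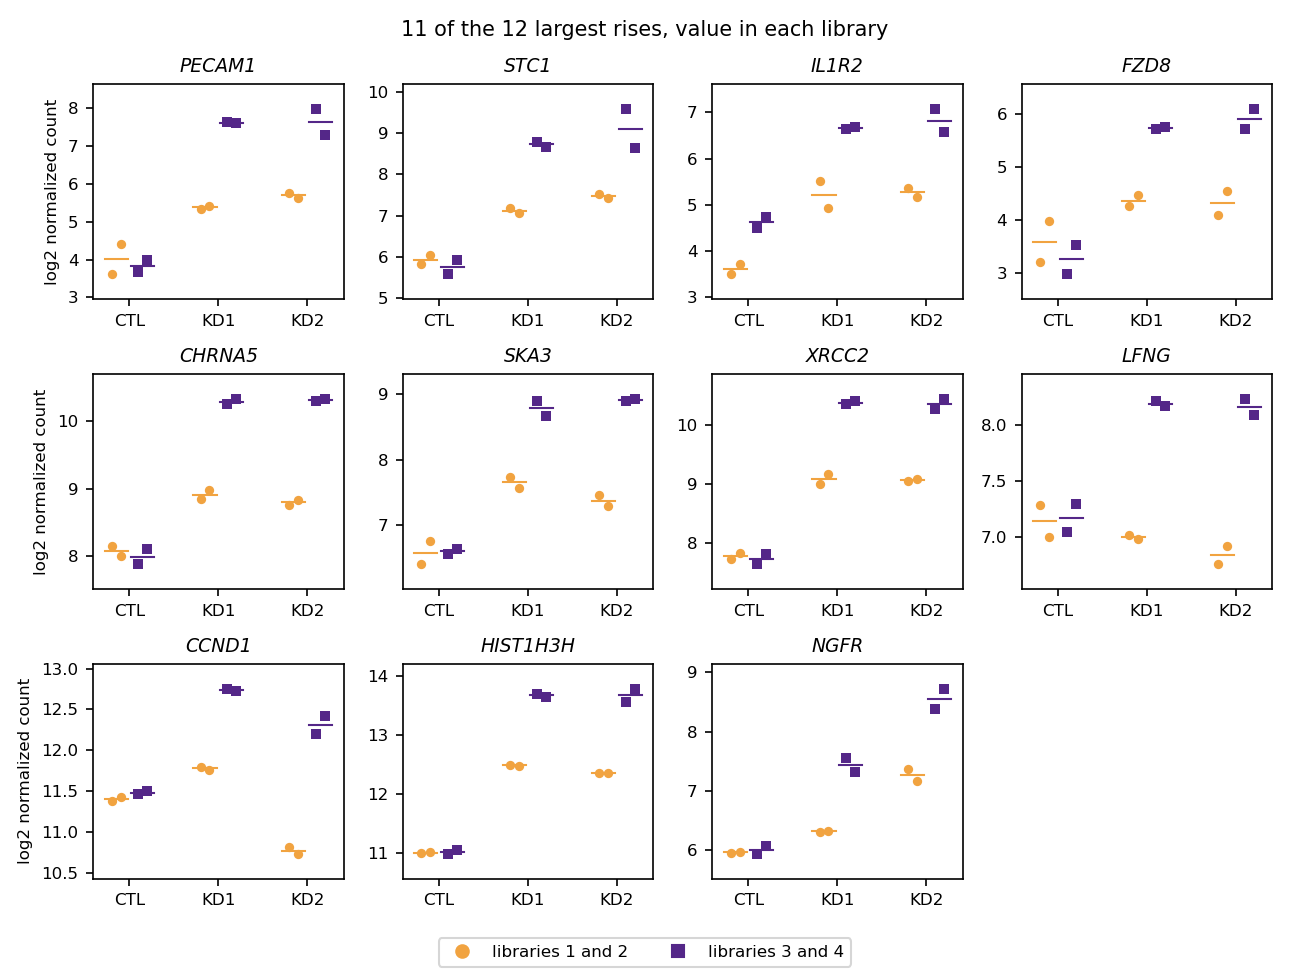
Levels (log2 normalized count, y axis) of 11 of the 12 genes with the largest rises, in each library of CTL, KD1 and KD2. Circles are libraries 1 and 2, squares libraries 3 and 4 and short lines the mean of each pair. The knockdown squares lie above the circles in every panel, and the CTL pairs lie apart by 1.02 in IL1R2.

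Genes of the G1/S transition and DNA synthesis were higher in libraries 3 and 4. Of 21 tested genes 10 rose and 0 fell, with a median difference of 0.42, against 0.06 over all tested genes. CCND1, the cyclin that activates CDK4 and CDK6, stood at 11.80 and 11.75 against 12.75 and 12.73 in KD1, and 10.81 and 10.73 against 12.20 and 12.42 in KD2. It rose by 2.38-fold (log2 difference 1.25, SE 0.109, adjusted p = 8.94e-06), with 0.96 in KD1 and 1.54 in KD2. CCNE2, a cyclin of S-phase entry, stood at 8.59 and 8.62 against 9.56 and 9.68 in KD1, and 8.51 and 8.32 against 9.65 and 9.92 in KD2, and rose by 2.29-fold (log2 difference 1.19, SE 0.0943, adjusted p = 4.6e-06). The replicative helicase subunit MCM3 stood at 12.48 and 12.39 against 13.23 and 13.19 in KD1, and 12.53 and 12.54 against 13.26 and 13.39 in KD2, and rose by 1.72-fold (log2 difference 0.78, SE 0.0374, adjusted p = 2.75e-07). PCNA, the sliding clamp of DNA polymerase, stood at 11.29 and 11.22 against 11.93 and 11.91 in KD1, and 11.18 and 11.18 against 11.92 and 11.91 in KD2, and rose by 0.70 (SE 0.0315).

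The nucleotide synthesis genes TYMS and RRM2 rose by 0.63 (SE 0.0348) and 0.60 (SE 0.0253). CDC7, CDC25A, MCM2 and CDK4 rose by 0.54, 0.48, 0.44 and 0.41. E2F1 passed but not on every fit, at 0.42 (SE 0.0626). Outside the list, and chosen after their values were seen, the E2F partner TFDP1 rose by 0.64 and the pocket protein gene RBL1 by 0.57, whereas RBL2, a pocket protein of resting cells, fell by 0.64. Without library 3 of KD2, 16 of the 21 were called higher and 1 lower. Without library 4 these numbers were 17 and 2, and with all libraries 16 and 1.

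Promoters of 3 of these risers are shown because they hold matches to E2F motifs, which capitals mark. The motifs were TTTCCCGC, TTTCGCGC, TTTGCCGC and TTTGGCGC on either strand, and the MCM2 run holds an overlapping pair. The window is the one used for FOS. MCM2 lies at chr3:127598161-127598425 (plus strand), MCM3 at chr6:52284728-52284992 (minus strand) and PCNA at chr20:5126608-5126872 (minus strand).
MCM2: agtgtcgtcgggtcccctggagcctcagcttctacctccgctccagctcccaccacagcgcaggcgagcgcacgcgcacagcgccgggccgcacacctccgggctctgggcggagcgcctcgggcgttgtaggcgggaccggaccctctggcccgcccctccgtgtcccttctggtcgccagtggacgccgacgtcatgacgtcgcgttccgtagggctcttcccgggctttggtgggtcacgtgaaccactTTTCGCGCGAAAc
MCM3: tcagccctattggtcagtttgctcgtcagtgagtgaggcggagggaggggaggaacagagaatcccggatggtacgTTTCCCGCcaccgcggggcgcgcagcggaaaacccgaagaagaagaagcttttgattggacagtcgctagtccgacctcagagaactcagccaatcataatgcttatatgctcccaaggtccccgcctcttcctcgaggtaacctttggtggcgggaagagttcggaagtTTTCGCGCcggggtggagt
PCNA: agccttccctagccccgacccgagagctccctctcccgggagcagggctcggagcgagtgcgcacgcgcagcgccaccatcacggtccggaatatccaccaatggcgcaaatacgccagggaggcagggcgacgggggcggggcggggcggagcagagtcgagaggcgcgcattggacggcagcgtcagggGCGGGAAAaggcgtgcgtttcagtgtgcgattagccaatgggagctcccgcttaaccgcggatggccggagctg
Of the 10 risers, 8 had a promoter in the table and 5 of these held a match (CDC25A, MCM2, MCM3, PCNA and TYMS), against 3.33% of all 27305 promoters. A share over the tested genes would be void, since 430 of the 557 (77.2%) had a promoter in the table and 80% were required. The panel's own share is therefore not given. A match is a string of letters and not a measured site. The list holds cyclins and replication factors, a class known to be transcribed by E2F factors. No share was taken for its members that did not rise, so a link of the motif to the rise was not tested.

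Of 33 tested mitotic genes 8 fell and 6 rose, at a median of -0.02. These counts are near the shares over all tested genes, 18.5% for falls and 22.3% for rises. Here, in the ID and Notch lists above and in the lists that follow, counts near those shares describe the named members. They say nothing particular about a list. MYBL2, a factor for G2/M transcription, stood at 11.42 and 11.35 against 12.44 and 12.39 in KD1, and 11.50 and 11.43 against 12.38 and 12.46 in KD2, and rose by 1.99-fold (log2 difference 0.99, SE 0.0364, adjusted p = 7.8e-08). FOXM1, which acts with it, rose by 0.50, and the spindle gene ASPM and the kinase MELK by 0.81 and 0.68. The spindle checkpoint kinase TTK stood at 11.35 and 11.31 against 10.88 and 10.87 in KD1, and 11.25 and 11.17 against 10.47 and 10.41 in KD2, and the gene fell by 0.61 (SE 0.0634) on the log2 scale. UBE2C, a ubiquitin-conjugating enzyme of the anaphase-promoting complex, fell by 0.47, the mitotic kinase AURKB by 0.43 and CDK1 by 0.42. CCNB1, the cyclin partner of CDK1, rose by 0.30. WEE1, which inhibits CDK1 and was outside the list, fell by 0.85, and this gene was chosen after its value was seen.

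Several CDK inhibitors fell, and others did not. Of 13 tested genes in the list of CDK inhibitors and growth arrest genes 5 fell and 3 rose, at a median of 0.14. Beside CDKN1C, CDKN2D stood at 8.70 and 8.71 against 7.89 and 7.82 in KD1, and 8.78 and 8.86 against 7.81 and 6.92 in KD2, and fell by 1.15 (SE 0.191). CDKN2B fell by 0.79 (SE 0.0558) and CDKN1B by 0.69 (SE 0.0712), as did BBC3, which encodes the proapoptotic protein PUMA, by 1.13 (SE 0.1). SFN, the epithelial 14-3-3 sigma gene, rose by 0.87 and BAX, a proapoptotic gene, by 0.33. CDKN1A, the CDK inhibitor p21, stood at 9.63 and 9.58 against 9.33 and 9.31 in KD1, and 9.63 and 9.74 against 10 and 10.09 in KD2. It had opposite signs in the lines, with -0.28 in KD1 and 0.36 in KD2, and did not pass. CDKN2A was higher and passed, but not on every fit, at 0.26 (SE 0.0330). CDKN2C did not pass, at 0.14 (SE 0.0738).

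**Figure D4:**
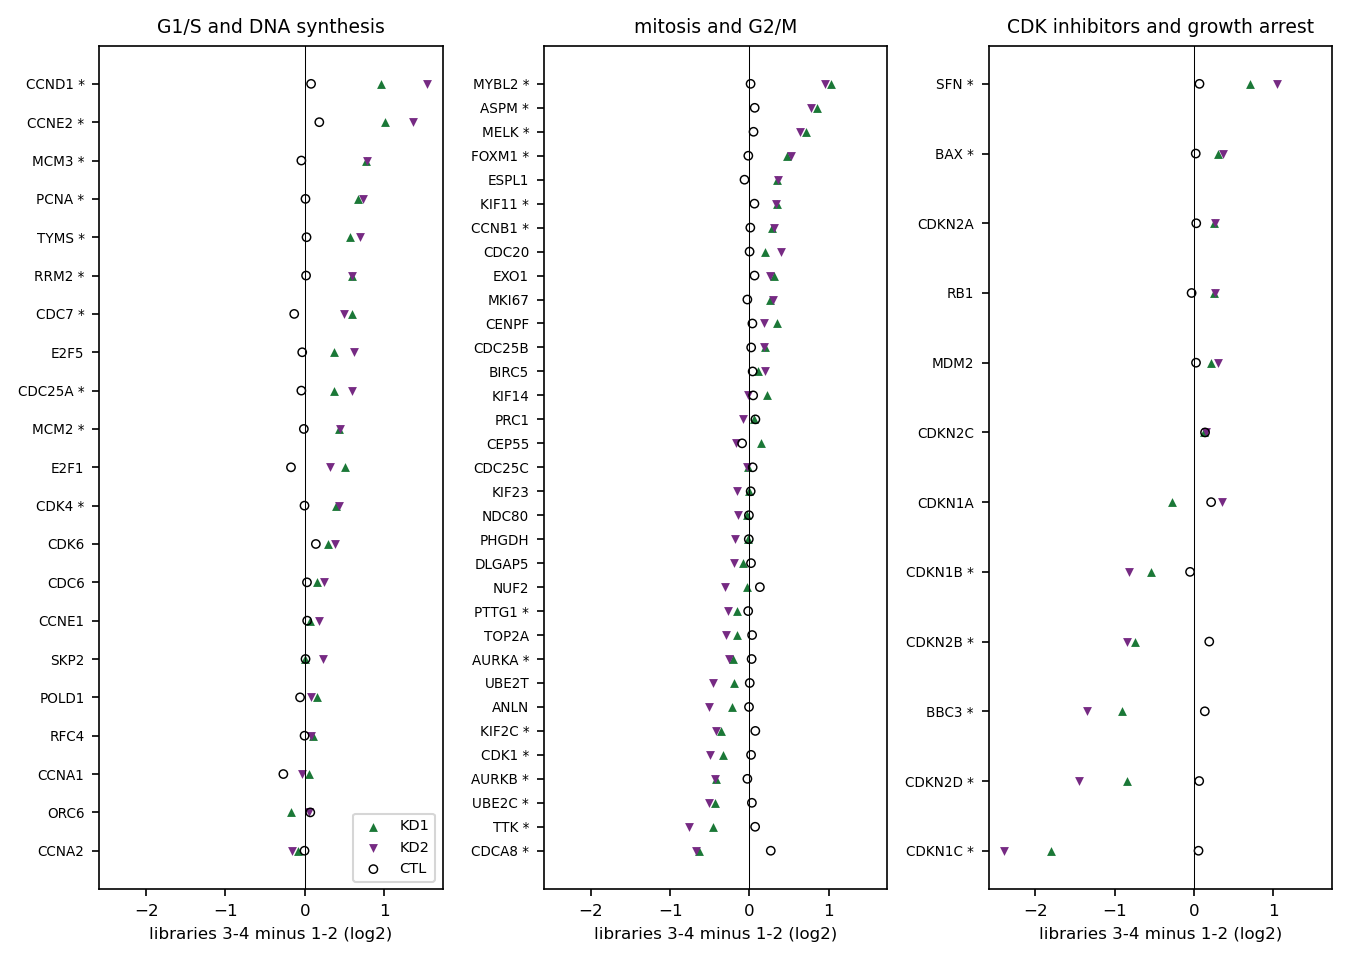
Difference between library sets (log2 of libraries 3 and 4 minus 1 and 2, x axis) for tested genes of 3 cell cycle lists. Upward triangles are KD1, downward triangles KD2 and open circles CTL, and a star marks genes that rose or fell. G1/S genes with a star lie right of 0 in both lines, at 0.37 or more, while CDKN1C lies at -1.80 and -2.40 and CTL near 0.

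All 3 histone genes of the list rose. HIST1H3H, a core histone H3 gene, stood at 12.49 and 12.47 against 13.70 and 13.64 in KD1, and 12.35 and 12.36 against 13.55 and 13.78 in KD2, and rose by 2.38-fold (log2 difference 1.25, SE 0.0501, adjusted p = 1.31e-07). HIST1H2BH stood at 12.36 and 12.38 against 13.33 and 13.33 in KD1, and 12.23 and 12.21 against 13.24 and 13.57 in KD2, and rose by 2.1-fold (log2 difference 1.07, SE 0.0722, adjusted p = 1.71e-06). The linker histone gene HIST1H1C stood at 14.41 and 14.36 against 15.29 and 15.28 in KD1, and 14.42 and 14.43 against 15.13 and 15.24 in KD2, a rise of 0.83 (SE 0.0384). A further core histone gene outside the list, HIST3H2BB, rose by 0.82. Histone genes have near-identical copies, and whether the probes separate them is not given.

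The promoters of both core histone genes of the list are shown, with CCAAT boxes (CCAAT on either strand) and TATA boxes in capitals, in the window used above. HIST1H3H, now H3C10, lies at chr6:27809801-27810065 and HIST1H2BH, now H2BC9, at chr6:26251364-26251628, both on the plus strand.
HIST1H3H: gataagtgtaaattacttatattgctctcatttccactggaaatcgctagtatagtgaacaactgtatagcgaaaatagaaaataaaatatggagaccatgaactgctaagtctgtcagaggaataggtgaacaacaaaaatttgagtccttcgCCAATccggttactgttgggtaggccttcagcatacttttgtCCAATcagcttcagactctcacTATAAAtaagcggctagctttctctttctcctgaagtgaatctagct
HIST1H2BH: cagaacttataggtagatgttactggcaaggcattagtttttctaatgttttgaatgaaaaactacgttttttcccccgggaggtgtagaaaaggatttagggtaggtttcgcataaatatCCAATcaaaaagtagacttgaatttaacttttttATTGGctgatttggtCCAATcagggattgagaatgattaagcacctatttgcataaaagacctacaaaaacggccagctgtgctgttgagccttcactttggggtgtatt
HIST1H3H held 2 CCAAT boxes and 1 TATA box, and HIST1H2BH 3 CCAAT boxes. CCAAT was found in 35.7% and TATAAA in 12% of all promoters of the table. E2F matches were in neither.

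DNA repair genes with a known part in homologous recombination were among the risers. Of 22 tested repair genes 10 rose and 3 fell, with a median of 0.30. XRCC2, of homologous recombination, stood at 9.01 and 9.17 against 10.35 and 10.40 in KD1, and 9.05 and 9.09 against 10.27 and 10.44 in KD2, and rose by 2.43-fold (log2 difference 1.28, SE 0.0556, adjusted p = 2.09e-07). FANCF, of the Fanconi anaemia core complex, stood at 9.50 and 9.42 against 10.43 and 10.52 in KD1, and 9.26 and 9.21 against 10.45 and 10.31 in KD2, and rose by 1.08 (SE 0.0530). BRCA2 rose by 1.04 (SE 0.0555) and BRCA1 by 0.63 (SE 0.0693), while RAD52 fell by 0.48. Among 11 histone modifying enzymes 4 rose and 2 fell. The deacetylase gene HDAC1 stood at 11.65 and 11.63 against 12.58 and 12.58 in KD1, and 12.34 and 12.32 against 13.23 and 13.23 in KD2, with nearly no spread within a set, and rose by 1.89-fold (log2 difference 0.92, SE 0.0257, adjusted p = 3.01e-08). HDAC2, the acetyltransferase KAT2B and the methyltransferase NSD1 rose by 0.73, 0.81 and 0.77, against the fall of HDAC5.

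Some genes that report ERK signalling were higher. Of 7 tested genes 3 rose and 0 fell. The median was 0.98 over both lines, 0.37 in KD1 and 1.1 in KD2. Without library 3 of KD2, 5 were called higher and 1 lower. SPRY4, a feedback inhibitor of receptor tyrosine kinase signalling, stood at 7.39 and 7.12 against 8.14 and 8.10 in KD1, and 7.23 and 7.22 against 8.14 and 8.51 in KD2, and rose by 1.97-fold (log2 difference 0.98, SE 0.107, adjusted p = 3.63e-05). The MAP kinase phosphatase DUSP4 stood at 10.78 and 10.71 against 11.29 and 11.29 in KD1, and 9.56 and 9.61 against 10.90 and 11.14 in KD2, a rise of 0.99 (SE 0.159), with 0.55 in KD1 and 1.43 in KD2. EREG, an EGF receptor ligand, rose by 1.07 (SE 0.107). DUSP6, the ERK phosphatase, stood at 8.97 and 8.95 against 9.31 and 9.36 in KD1, and 8.72 and 8.79 against 10 and 10.84 in KD2. Its difference of 1.02 (SE 0.265) passed as deposited and missed the threshold in other fits, with 0.37 in KD1 and 1.67 in KD2. SPRY1, of the family of SPRY4, had a difference of -0.42 (SE 0.229) and did not pass. In the MAPK cascade list 2 of 8 genes rose and 1 fell.

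In the ERBB list GRB7, an adaptor amplified together with ERBB2, stood at 14.51 and 14.47 against 13.81 and 13.82 in KD1, and 14.41 and 14.38 against 13.61 and 13.07 in KD2. GRB7 fell by 1.82-fold (log2 difference -0.86, SE 0.114, adjusted p = 0.000130), and EREG was the 1 riser among the 8 tested genes. ERBB2 itself had a difference of 0.24 (SE 0.0309) and EGFR one of 0.30 (SE 0.0570), and neither passed on every fit. Of 13 PI3K, AKT and mTOR genes 2 rose and 3 fell. The regulatory subunit gene PIK3R3 rose, with 7.24 and 7.08 against 8.0 and 8.02 in KD1, and 7.49 and 7.48 against 8.46 and 8.77 in KD2 and a difference of 0.99 (SE 0.0963). PIK3CD, a catalytic subunit, fell by 0.53. Among growth factor receptor genes FGFR3 fell by 0.60, and 2 of 16 rose.

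Of 16 epithelial junction and apical genes 7 fell and 3 rose, at a median of -0.20. CLDN4, a tight junction claudin, stood at 12.53 and 12.48 against 11.66 and 11.68 in KD1, and 12.29 and 12.25 against 11.71 and 11.83 in KD2, and fell by 0.66 (SE 0.0669). The epithelial transcription factor ELF3 fell by 0.56 and CD24 by 0.54, while the keratin gene KRT7 rose by 0.44 and the desmosomal cadherin DSC2 by 0.61. CDH1, which encodes E-cadherin, did not pass, with a difference of -0.05 (SE 0.0299) beside the fall of SNAI1. Of 18 mesenchymal genes 4 rose and 4 fell. SNAI2, the relative of SNAI1, rose by 0.56 (SE 0.0948) and MMP9 by 1.03 (SE 0.174), whereas MMP14 fell by 0.53. VIM did not pass, at -0.08 (SE 0.130).

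In the luminal list, which holds hormone receptors, 3 of 17 genes rose and 2 fell. The estrogen receptor gene ESR1 stood at 7.43 and 7.22 against 7.83 and 7.97 in KD1, and 7.66 and 7.67 against 8.36 and 8.42 in KD2, and rose by 0.65 (SE 0.0777), and the luminal factor GATA3 fell by 0.40. Of 15 basal genes 4 rose and 3 fell, among them SFRP1, a secreted Wnt antagonist (0.69), and the keratin KRT6B (0.66).

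In the TGF-beta and activin list 2 of 10 genes rose and 2 fell. TGFB2, a ligand, stood at 11.45 and 11.44 against 10.63 and 10.59 in KD1, and 11.38 and 11.38 against 10.06 and 9.88 in KD2, and fell by 2.18-fold (log2 difference -1.12, SE 0.106, adjusted p = 1.5e-05). THBS1, which activates latent TGF-beta, fell by 0.79, although library 4 of KD2 stood at 11.62, near the 11.74 and 11.71 of libraries 1 and 2. INHBA, an activin subunit gene, stood at 8.50 and 8.50 against 9.45 and 9.39 in KD1, and 8.14 and 8.05 against 8.91 and 9.16 in KD2, and rose by 0.93 (SE 0.0664), and the receptor gene TGFBR2 rose by 0.63. Of 17 Wnt genes 5 rose and 3 fell. Beside FZD8, the antagonist DKK1 stood at 6.20 and 6.57 against 7.02 and 7.27 in KD1, and 6.88 and 6.22 against 7.74 and 8.28 in KD2, a rise of 1.11 (SE 0.215), and the transcription factor LEF1 rose by 0.60. The kinase gene GSK3B fell by 0.44 and the ligand WNT4, near the floor, by 0.87.

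Of 17 cytokine receptor and JAK-STAT genes 3 rose and 4 fell. Beside LEPR, the kinase gene JAK3 stood at 6.72 and 6.59 against 5.74 and 5.29 in KD1, and 6.47 and 6.97 against 5.52 and 5.48 in KD2, and fell by 1.18 (SE 0.148). PIM1, a STAT target kinase, fell by 1.02 and the feedback inhibitor SOCS3 by 0.75. In the interferon list of 5 genes ISG15 and OAS3 rose by 0.66 and 0.68, each alike in both lines, and SOCS1, an inhibitor of JAK signalling, fell by 1.18 (SE 0.0799). Of 14 HLA and antigen processing genes 4 fell and 3 rose. The fallers included class I heavy chain genes, with HLA-E at 12.63 and 12.64 against 12.03 and 12.02 in KD1, and 12.81 and 12.80 against 12.18 and 12.19 in KD2 and differences of -0.62 and -0.48 for HLA-E and HLA-B. The proteasome and transporter genes PSMB7, TAP2 and PSMB10 rose by 0.68, 0.52 and 0.47. HLA genes are close in sequence, and how far the probes separate them is not given.

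Of 11 NF-kB and inflammatory genes 2 rose and 1 fell. NFKBIZ, an inducible NF-kB cofactor, stood at 10.34 and 10.39 against 9.04 and 9.0 in KD1, and 10.38 and 10.39 against 9.44 and 10.01 in KD2, and fell by 1.0 (SE 0.155). The cytokine genes LIF and CCL5 rose by 0.80 and 0.77. Of 13 hypoxia and metabolism genes 2 rose and 1 fell. The peptide hormone gene ADM stood at 11.33 and 11.31 against 10.01 and 10.02 in KD1, and 11.32 and 11.30 against 10.11 and 10.10 in KD2. It fell by 2.39-fold (log2 difference -1.26, SE 0.0357, adjusted p = 3.01e-08), in contrast to STC1 and the glycolytic enzyme ENO1 (0.53), which rose. Of 6 apoptosis genes 2 rose and 1 fell, and of 5 checkpoint genes none rose or fell.

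**Figure D5:**
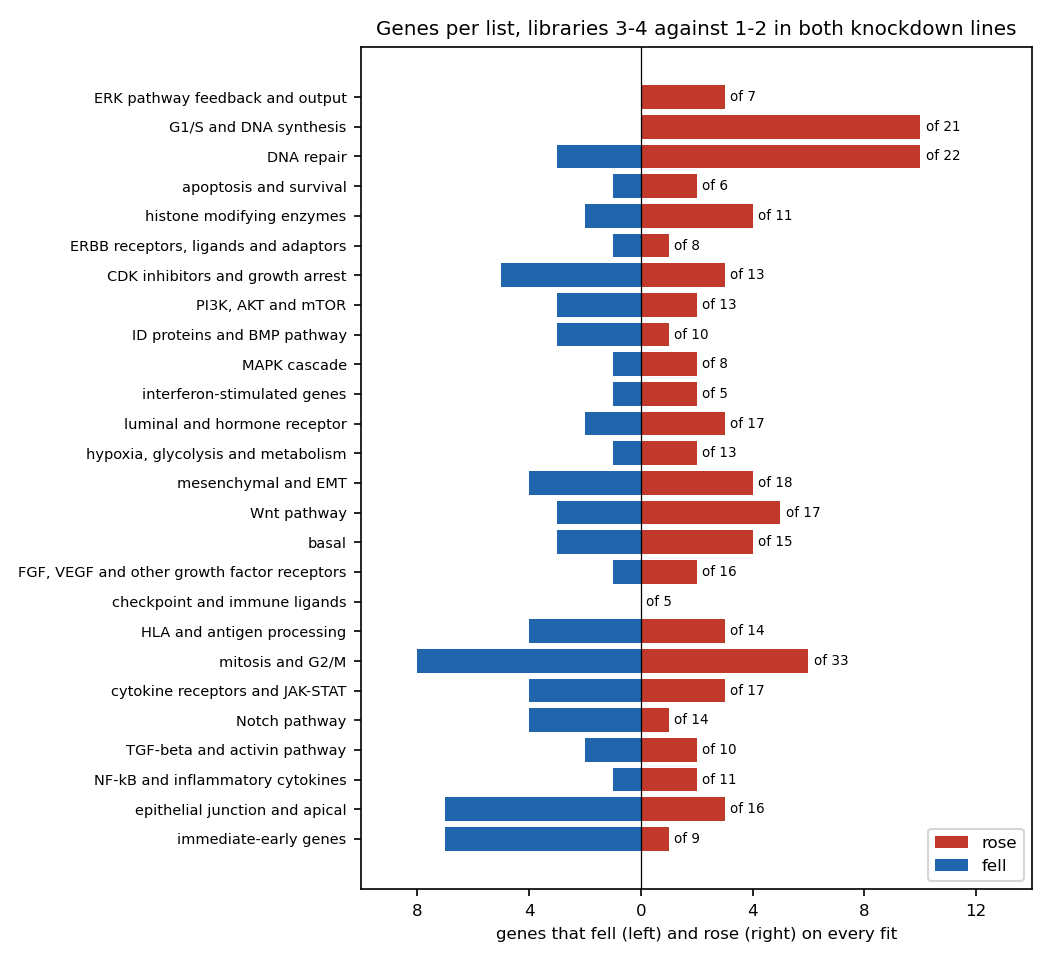
Number of genes that rose (red, right) and fell (blue, left) in libraries 3 and 4 of both knockdown lines, for each list with 5 or more tested genes (the number after "of"), ordered by median difference. The G1/S list has 10 risers and 0 fallers of 21, and the immediate-early list 1 riser and 7 fallers of 9.

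CTL carries the same library numbers without shRNA stated. Of 557 genes 2 passed in CTL (0.359%), both higher in libraries 3 and 4, and 44 had an unadjusted p under 0.05. The 2 genes were NR4A3, by 1.63 (limma adjusted p = 0.00828), and the chemokine gene CXCL8, by 1.2 (limma adjusted p = 0.0425). The knockdown difference was beyond that of CTL for 317 genes (56.9%), 183 upward (32.9%) and 134 downward (24.1%), and for 218 of the 227 that rose or fell. With pairs averaged 199 passed. The CTL count rested on single libraries, as it was 36 (35 higher) without library 3 or library 4 of KD2, whose spread enters the fit. It was 0 with no variance trend or without any 1 of the CTL libraries, which ends both calls.

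Some genes that fell in the knockdown lines had CTL differences above 0, of which only that of NR4A3 passed. FOS stood at 8.73 and 8.71 against 9.76 and 9.69 in CTL, a difference of 1.01, and the knockdown minus CTL contrast was -4.78 (SE 1.01, limma adjusted p = 0.00176). NR4A3 stood at 6.71 and 6.66 against 8.26 and 8.37 in CTL and HES1 at 10.64 and 10.72 against 11.62 and 11.68 in CTL. That contrast was -3.95 (SE 0.265) for NR4A3 and -3.58 (SE 0.357) for HES1. It was -2.13 for EDN1, the endothelin precursor, -1.88 for JUN and -1.51 for NFKBIZ. GADD45B stood at 11.82 and 11.82 against 12.07 and 12.11 in CTL, a difference of 0.27 that did not pass. The median CTL difference of the immediate-early list was also 0.27, against 0.02 over all tested genes. CDKN1C stood at 9.66 and 9.72 against 9.71 and 9.79 in CTL, nearly alike between the CTL sets.

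The place of the knockdown levels against CTL depended on the scale, as the deposited scales set CTL apart by a constant. By median of ratios, 75 of the 124 risers lay farther from the CTL mean in libraries 3 and 4 on the side where libraries 1 and 2 already were, in both lines, and 64 of the 103 fallers did. On the deposited values these numbers were 112 and 31. Crossing the CTL mean in both lines was seen for 20 risers and 13 fallers by median of ratios and for 6 and 28 on the deposited values. FOS, HES1, NFKBIZ, LFNG and CCNE2 crossed it on both scales. Libraries 1 and 2 of NFKBIZ lay only 0.05 (KD1) and 0.08 (KD2) above it by median of ratios, and the CTL sets of NFKBIZ differed by 0.51 as deposited. By median of ratios FOS was above CTL by 0.77 in libraries 1 and 2 of KD1 and by 0.75 in those of KD2, and libraries 3 and 4 stood at -4.36 and -1.86.

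The number of genes that differed between the lines rested on single libraries. A test of the difference between KD2 and KD1 passed for 6 genes (1.08%), and 98 had an unadjusted p under 0.05. The difference was larger in KD2 for DUSP4, by 0.88 (SE 0.11, limma adjusted p = 0.0199), and for CCND1, by 0.58 (SE 0.0973, limma adjusted p = 0.0357). MYC stood at 13.07 and 13.05 against 12.79 and 12.76 in KD1, and 12.75 and 12.75 against 13 and 13.22 in KD2. It was thus lower in libraries 3 and 4 of KD1 and higher in those of KD2, as was CDKN1A. BAMBI, a decoy receptor for TGF-beta, had 0.35 in KD1 and 0.94 in KD2, and TGFB2 had -0.84 in KD1 and -1.41 in KD2. The count of 6 was 181 without library 3 of KD2 and 69 without library 4. It was 1 without library 2 of KD2 and 0 without library 1 of KD2 or any 1 of the 4 libraries of KD1, and it was also 0 without variance trend and with a replicate block. At least 5 of the 6 calls were thus lost in each fit with a count of 0 or 1.

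Libraries 3 and 4 of KD2 were not near-duplicates, and differed by more than 2-fold in 12 genes against 2 to 4 in the other knockdown pairs. The difference of library 3 minus library 4 was -3.77 in FOS and -1.33 in HES1. The other large differences downward were CCL3L1 (-1.23), S1PR1 (-1.22) and OGN (-1.18). Library 3 was higher in MAPT (1.27), WNT10A (1.08), SFRP2 (1.07), NOTCH3 (1.01) and WNT4 (1.01). These are differences between 2 libraries, with no test.

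HSL119 against CTL shares no library with the knockdown comparison. Across the 557 genes its difference, by median of ratios, had a Pearson r of 0.272 with the knockdown difference between sets. Of the 124 risers 81 were higher with HSL119 and of the 103 fallers 70 were lower, where 52.2% of all tested genes were higher. These are descriptions across genes, which are not independent. Some genes went opposite ways, as FOSL1 and SPRY4 rose in libraries 3 and 4 and had HSL119 minus CTL differences of -4.61 and -4.83.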

How the data were processed

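Expression of 758 panel genes was read from the table deposited by the authors, which holds log2 normalized counts and linear normalized counts per the file headers. How the authors normalized them is not given in the sources used here. The log2 values were tested as deposited. The linear normalized counts, a signal whose scale the authors set, are as deposited, and 100% of its knockdown and CTL values were whole multiples of a single step within 0.01. edgeR 4.0.16 on these recovered counts called 368 genes, 192 higher and 176 lower. Tests used limma 3.58.1 in R 4.3.3 (lmFit and eBayes with a trend, two-sided, Benjamini-Hochberg at 0.05), with the line as a block. Values were also rescaled by median of ratios, by quantiles, by library medians and as log2 of the linear value with 1 added. Contrasts with CTL came from a fit of 6 groups. Library totals limit the precision of low values. The members and lists were chosen with earlier results of these data known. Named are the 12 largest rises and falls, up to 4 members of each list with 3 called genes or more, and the largest differences between lines and between KD2 libraries 3 and 4. Any other gene was picked for its value. Some genes that the rule or the lists hold are not reported here and stay in the counts. The fits were tested on simulated data. Replicate numbers were checked as pairs by correlating deviations of KD1 and KD2 libraries from their set means, with r of -0.0303 and 0.0344. The numbers were therefore not used to pair the samples in the main fit. Most pairs of libraries were close to counting error, so this check cannot exclude a pairing.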

Additional observations from a re-analysis of the deposited data

Results flagged for a closer look

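A test of the difference between lines singled out 6 genes, as KD2 minus KD1 of the difference between library sets. These values were 0.884 for DUSP4, 0.641 for MYC, 0.639 for CDKN1A, 0.592 for BAMBI, 0.577 for CCND1 and -0.572 for TGFB2. The count was 0 or 1 in 6 of the 8 fits that left out a knockdown library. A test of the knockdown difference against that of CTL singled out 317 genes. Of the genes named next, which fell in the knockdown lines and had CTL differences above 0, only NR4A3 passed in CTL itself. CXCL8, the other gene that passed in CTL, had a knockdown difference of -0.41 that did not pass. The knockdown minus CTL value was -4.78 for FOS, -3.95 for NR4A3, -3.58 for HES1, -2.13 for EDN1, -1.88 for JUN, -1.51 for NFKBIZ, -1.46 for WNT4 and -1.32 for THBS1.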

How the results depend on the processing

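The count of 368 genes stayed at 347 to 379 over the other scalings, filters, variance models, the fit of all 15 libraries and edgeR, was 323 with pairs averaged and 305 to 362 in single lines, and was 343 to 384 with single libraries left out. Of the 227 genes that rose or fell, 225 were still called with each of 8 knockdown libraries left out. The 24 genes with the largest rises and falls, for which alternatives were run, kept their call in 503 of them, and FOS in KD2 alone (-2.50) lost it. The count of 6 genes that differ between lines was 24 with quantile normalization, 17 by median of ratios, 0 with no variance trend and 0 with a replicate block (83 at an unadjusted p under 0.05), and 0 to 181 with single libraries left out. The count beyond CTL was 199 with pairs averaged and 268 to 347 with libraries left out. The CTL count of 2 was 1 with quantile normalization, 0 with no variance trend and 0 to 36 with libraries left out. The causes were not tested. Since the numbers are nested in the sets, no paired fit of the main comparison was possible. Near-duplicate pairs and low counts limit the precision.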

Other observations

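Of the genes in none of the lists, 44 rose and 36 fell, and those named here were chosen after their values were seen. EIF2AK3, which encodes the unfolded protein sensor PERK, fell by 1.04 on the log2 scale, and PDK4, a kinase that restrains pyruvate oxidation, fell by 1.10. The lipid carrier gene APOE fell by 0.85, alike in KD1 and KD2. The histone chaperone gene NASP rose by 0.86, the histone methyltransferase SUV39H2 by 0.85, and WDR77, a cofactor of the arginine methyltransferase PRMT5, by 1.07.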
